A study of Saccharomyces cerevisiae with 6 samples.

Results

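The genes described here are 56 enzymes of amino acid biosynthesis and GCN4, the transcription factor that turns many of them on. They were chosen by gene symbol from a list of 57 names, and all 57 were found among the 5925 genes of the deposited files and passed the filter on low counts, which 5774 genes passed. Their levels were compared between BSGX001 (thi2Δ) and BSGX001, with 3 libraries per strain. BSGX001 is a haploid Saccharomyces cerevisiae strain derived from CEN.PK 113-5D. It carries a xylose isomerase gene (Ru-XI) and a xylulokinase gene (XK), has pentose phosphate pathway genes in place of GRE3 (gre3::PPP), lacks COX4 (cox4Δ) and was evolved on xylose. The paper's text also names a PHO13 deletion in BSGX001, which its list of strains does not give. BSGX001 (thi2Δ) shares this background and is labelled as lacking in addition THI2, a transcription factor gene of thiamine synthesis, replaced through a KanMX4 cassette. The paper says that the marker was later removed with Cre recombinase. Both strains were taken at the GX stage, when glucose is used up and xylose remains, after 20 h at 30 °C in yeast nitrogen base with ammonium sulfate, to which both sugars were added at 20 g/L. The labels list no amino acids in this medium. The paper, which does not describe these libraries, names synthetic complete (SC) medium for its fermentations with both sugars. Whether amino acids were supplied to these cultures is therefore not known. The labels speak of triplicates and do not say whether these were separate cultures, so the p-values measure the spread between these libraries, which may be technical.

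Yeast makes its own amino acids when none are supplied, and the pathways are controlled at several levels. When uncharged tRNA builds up, the kinase Gcn2 acts on the initiation factor eIF2, and the GCN4 message, which is otherwise held back by short open reading frames in its leader, is translated. Gcn4 then binds a short DNA element with the core TGACTC upstream of genes in most of these pathways, a response known as general amino acid control. GCN4 activity is thus set mostly by translation and protein turnover, and its mRNA level is not a readout of it. Single pathways have regulators of their own, such as Leu3 for leucine and Lys14 for lysine, and most first enzymes are inhibited by the amino acid at the end of their pathway.

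The Gcn4 core, searched on both strands from 250 bases before to 50 bases after the start codon, was found at 32 of the 57 genes (56.1%) and at 470 of the 5766 tested genes for which this window could be read (8.15%). A wider window of 500 bases before the start codon, chosen after seeing the data, held it at 39 of the 57 (68.4%) and at 744 of the 5766 genes (12.9%). A match is a string of letters in the S288C reference genome R64 and not a measured binding site. The stretches shown next carry the core that lies nearest the start codon in the wider window, written 5′ to 3′ on the coding strand, with the core in capitals, either as TGACTC or as its reverse complement GAGTCA. They were picked after the values were known, so that each pathway has the core-bearing gene with its largest change and so that genes that rose or did not pass the test stand beside genes that fell.
HOM3, lower, chrV:258224-258253, minus strand: ttttcaggcccaTGACTCaccttttctttc
LYS1, lower, chrIX:420853-420882, minus strand: ttcagcgacaaaGAGTCAtaaagtcatcct
ARO1, lower, chrIV:704249-704278, plus strand: ttgtcatgcataTGACTCatcccgaacatg
ILV3, lower, chrX:466326-466355, minus strand: ttcctctccagaTGACTCagtaatatagta
HIS1, lower, chrV:265951-265980, minus strand: aagcttccaagtGAGTCAcctctaccgttg
ARG4, lower, chrVIII:141564-141593, minus strand: ttagtagatgaaTGACTCactttttggata
HIS4, not called, chrIII:68515-68544, minus strand: acccatgcacagTGACTCacgtttttttat
LEU9, higher, chrXV:522758-522787, plus strand: ggtcgtagtgaaTGACTCatatttttccat
BAT1, higher, chrVIII:517349-517378, plus strand: attgccttcttaTGACTCaaaattctattg
SHM2, higher, chrXII:259611-259640, minus strand: accataaaggttTGACTCtatctcttgggt
The cores of these 10 genes end between 128 and 277 bases before the start codon, and genes of both directions carry the same 6 letters.

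The libraries held 7584920 to 12255688 counts each, and the lowest count of any of the 57 genes in a library was 49. Levels are given as CPM, the counts of a gene per 1000000 counts of a library whose total was scaled by edgeR's TMM factor, and differences as log2 fold changes of BSGX001 (thi2Δ) over BSGX001 with their standard error (SE). A gene was called higher or lower where edgeR's quasi-likelihood test, adjusted over all 5774 genes, gave a p under 0.05. THI2 had 9.81, 10.9 and 13.9 CPM in BSGX001 (thi2Δ), against 22.7, 24.5 and 27.0 CPM in BSGX001. In counts these were 128, 90 and 141 in BSGX001 (thi2Δ), against 215, 203 and 187 in BSGX001, so THI2 was at 46.6% of its BSGX001 level, lower in all 3 libraries but not near 0, as a whole deletion in a haploid strain would give. Whether the remaining reads lie on parts of the gene left in place was not tested, and the libraries are named here by their labels. All 3 BSGX001 (thi2Δ) libraries also shared a raised level of chromosome I and of a segment of chromosome XII, where 190 of 192 tested genes were above 0 and the median was 1.02 on the log2 scale. Both regions were chosen from earlier results of these data, so these values describe them and do not test them. Effects of the THI2 replacement and of these regions cannot be told apart. None of the 57 genes lies in them, and the nearest, ILV5, lies 20305 bp beyond the segment, with 10 genes between.

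With TMM, most of the 56 biosynthetic enzymes were lower in BSGX001 (thi2Δ), by modest amounts, and the falls were spread over all 6 pathways. Of the 57 genes, 32 (56.1%) were called lower, against 25.2% of all tested genes, and 5 (8.77%) were called higher, against 26.1% of all tested genes. The 5 were LEU9, BAT1, LYS12, PRO1 and SHM2. GCN4 itself was not called. With library totals alone 23 of the 57 genes were called lower, against 10.3% of all tested genes, and 18 higher, against 51.9%. Since these are shares of the RNA of whole cultures, a fall in every cell and fewer cells that express a gene cannot be told apart. Of the 5 genes called higher with TMM, LEU9 stayed above 0 relative to ACT1, at 0.15. The other 4 were below 0, from -0.16 to -0.01, beside a median of -0.38 over all tested genes. With TMM the median log2 fold change was -0.26 over the 57 genes and 0.01 over all tested genes. The single values ran from -1.08 for HOM3 to 0.54 for LEU9. HOM3 was the only one of the 57 to change by at least 2-fold and ranked 15 from the lowest of the 5774 genes. All 3 BSGX001 (thi2Δ) libraries lay below all 3 BSGX001 libraries for 30 of the 57 genes (52.6%), against 28.7% of all tested genes, and above them for 7 (12.3%), against 29.1%.

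**Figure D1:**
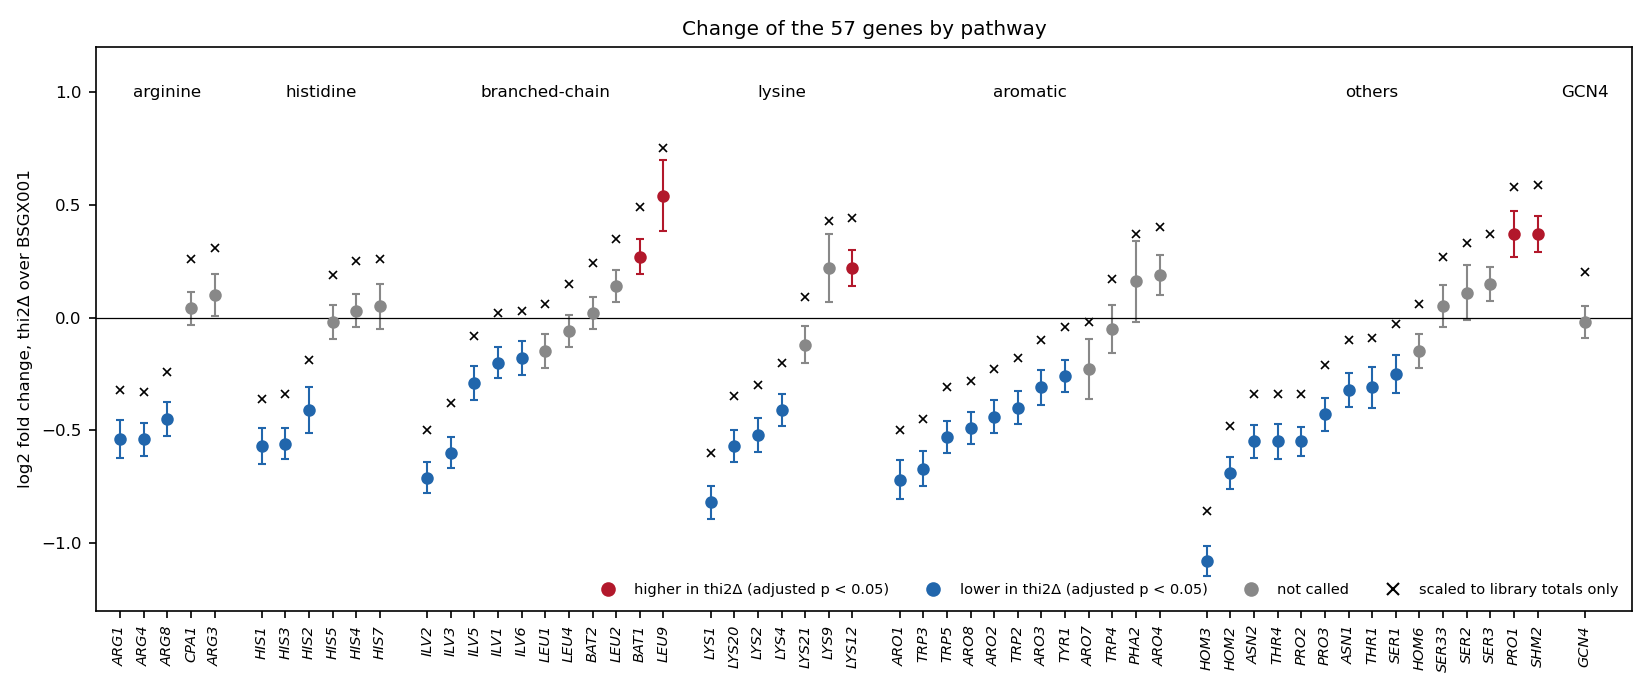
Each point is the log2 fold change of 1 gene, BSGX001 (thi2Δ) over BSGX001, on the vertical axis, with its standard error as the bar, grouped by pathway along the horizontal axis; colours mark the call and crosses the value with scaling to library totals only. Blue points, called lower, are found in all 6 pathways, HOM3 lies lowest at -1.08, and every cross lies above its point.

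How many genes were called depended on the scaling between libraries. TMM assumes that most genes do not change. With library totals alone the median of all tested genes moved up by 0.22 on the log2 scale, and 23 of the 57 genes were called lower, against 10.3% of all tested genes, and 18 higher, against 51.9%. The 23 genes were all among the 32, and the 9 that lost the call were HIS2, ILV1, ILV5, ILV6, ARO3, TYR1, SER1, THR1 and ASN1. The 13 that became called higher were ARG3, CPA1, HIS4, HIS5, HIS7, LEU2, BAT2, LYS9, ARO4, SER2, SER3, SER33 and GCN4. None of the 57 genes was called lower with one scaling and higher with the other. The same 23 genes were called lower in all 15 alternative fits. These were 3 other scalings or tests on counts, 2 on FPKM, 2 other filters, a replicate block, each library left out and the 2 regions left out. The fits use the same 6 libraries and are not independent checks. Library totals, 1 of these fits, called 10.3% of all tested genes lower, and the share lower in every fit was not counted. With library totals the median of the 57 genes was -0.04, beside 0.22 for all tested genes. Relative to ACT1, the actin gene, which was itself higher by 0.39, the median of the 57 genes was -0.64, beside -0.38 for all tested genes. The share of all reads that fell on the 57 genes, which needs no scaling beyond the library total, was 1.15%, 1.10% and 1.12% in BSGX001 (thi2Δ), against 1.23%, 1.28% and 1.23% in BSGX001.

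In the arginine pathway 3 of 5 genes were called lower, including those of the last steps, and none was called higher. Over all tested genes 25.2% were lower and 26.1% higher. ARG1, argininosuccinate synthetase, had 226.9, 164.2 and 190.4 CPM in BSGX001 (thi2Δ), against 267.9, 292.2 and 286.0 CPM in BSGX001 (log2 fold change -0.54, SE 0.0839, adjusted p = 6.68e-06). ARG4, argininosuccinate lyase, which releases arginine, had 501.2, 425.6 and 444.2 CPM in BSGX001 (thi2Δ), against 632.8, 706.1 and 660.3 CPM in BSGX001 (-0.54, SE 0.0731, adjusted p = 2.79e-07). For both genes every BSGX001 (thi2Δ) library lay below every BSGX001 library. ARG8, the mitochondrial acetylornithine aminotransferase, was lower by a log2 fold change of -0.45 (SE 0.0743), at 73.0% of the BSGX001 level. ARG3, ornithine carbamoyltransferase, was not called with TMM, at 0.10 (SE 0.0920). Nor was CPA1, the small subunit of the arginine-specific carbamoyl phosphate synthetase, at 0.04 (SE 0.0715). With library totals, which moved the median of all tested genes up by 0.22, both were called higher, at 0.31 and 0.26.

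Of the 6 histidine genes 3 were lower and 3 were close to 0. HIS1, the ATP phosphoribosyltransferase that opens the pathway, had 137.5, 114.2 and 113.8 CPM in BSGX001 (thi2Δ), against 172.1, 197.2 and 176.1 CPM in BSGX001 (log2 fold change -0.57, SE 0.0785, adjusted p = 3.74e-07). HIS3, imidazoleglycerol-phosphate dehydratase, had 195.3, 185.3 and 190.3 CPM in BSGX001 (thi2Δ), against 265.1, 282.4 and 296.1 CPM in BSGX001 (-0.56, SE 0.0677, adjusted p = 3.68e-08). Neither gene overlapped between the strains. HIS2, histidinol phosphatase, was lower at -0.41 (SE 0.101), but its call was lost with library totals, at -0.19 (adjusted p = 0.108). HIS4, which encodes a multifunctional enzyme and is a standard reporter gene of Gcn4, was at 0.03 (SE 0.0730), HIS5, the aminotransferase, at -0.02 (SE 0.0743) and HIS7, the glutamine amidotransferase and cyclase, at 0.05 (SE 0.0993). With library totals, which moved the median of all tested genes up by 0.22, HIS4, HIS5 and HIS7 were called higher, at 0.25, 0.19 and 0.26. These 3 carry the Gcn4 core in the promoter window, as do HIS1 and HIS3.

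In the branched-chain pathway all 5 ILV genes were called lower with TMM, and no gene of the leucine branch was. Of its 11 genes, 5 were lower (45.5%, against 25.2% of all tested genes) and 2 higher (18.2%, against 26.1%). ILV2, the catalytic subunit of acetolactate synthase, had 424.7, 384.8 and 388.4 CPM in BSGX001 (thi2Δ), against 647.0, 632.4 and 686.8 CPM in BSGX001 (log2 fold change -0.71, SE 0.0695, adjusted p = 4.91e-10). ILV3, dihydroxyacid dehydratase, had 325.5, 292.9 and 327.9 CPM in BSGX001 (thi2Δ), against 452.3, 502.3 and 481.9 CPM in BSGX001 (-0.60, SE 0.0696, adjusted p = 1.70e-08). Both stood clear of the spread between libraries. ILV5, acetohydroxyacid reductoisomerase, which also has a role in keeping mitochondrial DNA, had 311.9, 306.6 and 335.7 CPM in BSGX001 (thi2Δ), against 343.5, 430.9 and 396.9 CPM in BSGX001 (-0.29, SE 0.0745). ILV6, the regulatory subunit of acetolactate synthase, was lower at -0.18 (SE 0.0766, adjusted p = 0.0454) and ILV1, threonine deaminase, at -0.20 (SE 0.0697, adjusted p = 0.0181). The calls of ILV5, ILV6 and ILV1 were lost with library totals, at -0.08, 0.03 and 0.02. That of ILV6 was lost as well without BSGX001 replicate 2 (-0.11) or 3 (-0.19) and without BSGX001 (thi2Δ) replicate 2 (-0.12) or 3 (-0.21), and that of ILV1 without BSGX001 replicate 3 (-0.15) and without BSGX001 (thi2Δ) replicate 2 (-0.18) or 3 (-0.19).

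In the leucine branch, LEU4, the main isopropylmalate synthase, was at -0.06 (SE 0.0726), LEU1, isopropylmalate isomerase, at -0.15 (SE 0.0749) and LEU2, isopropylmalate dehydrogenase, at 0.14 (SE 0.0698), and none was called. LEU1 was called lower without BSGX001 replicate 1, at -0.23. LEU9, the second isopropylmalate synthase, had 12.9, 12.7 and 13.8 CPM in BSGX001 (thi2Δ), against 7.49, 9.43 and 10.5 CPM in BSGX001 (log2 fold change 0.54, SE 0.158, adjusted p = 0.00561). This was the largest rise among the 57 genes, in the one with the lowest level by FPKM, and it was not called without BSGX001 replicate 1, at 0.40 (adjusted p = 0.0612). BAT1, the mitochondrial branched-chain aminotransferase, had 95.8, 96.8 and 101.3 CPM in BSGX001 (thi2Δ), against 75.1, 87.4 and 80.6 CPM in BSGX001 (0.27, SE 0.0763, adjusted p = 0.00342), and BAT2, its cytosolic counterpart, was at 0.02 (SE 0.0709). Relative to ACT1, BAT1 turned to -0.11. The Leu3 element, CCG and CGG with 4 bases of any kind between them, read on both strands in the promoter window, was found at LEU1, LEU2, BAT1 and HOM6, which is 7.02% of the 57 genes and compares with 1.47% of the tested genes, and none of these 4 was called lower. In the 500 bases before the start codon it was found at 10 of the 57 genes (17.5%), against 3.21% of the tested genes. Of these 10, ILV2, ILV5, HOM2 and ASN1 were called lower, and the median of the 10 was -0.19. The 47 genes without it had a median of -0.31, and 28 of them were called lower. Over all tested genes 25.2% were called lower.

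Of the 7 lysine genes 4 were called lower (57.1%, against 25.2% of all tested genes) and 1 was called higher (14.3%, against 26.1%). Among the 4 were those of the entry and of the last step. LYS1, the saccharopine dehydrogenase that forms lysine, had 405.0, 352.5 and 349.3 CPM in BSGX001 (thi2Δ), against 625.7, 641.0 and 688.2 CPM in BSGX001 (log2 fold change -0.82, SE 0.0725, adjusted p = 6.42e-11). LYS20, a homocitrate synthase at the entry of the pathway, had 225.7, 204.7 and 191.1 CPM in BSGX001 (thi2Δ), against 316.7, 296.0 and 309.1 CPM in BSGX001 (-0.57, SE 0.0702, adjusted p = 6.10e-08). LYS1 was the second largest fall of the 57 genes, at 56.7% of its BSGX001 level. LYS2, α-aminoadipate reductase, was lower at -0.52 (SE 0.0762) and LYS4, homoaconitase, at -0.41 (SE 0.0721). LYS21, the other homocitrate synthase, was not called at -0.12 (SE 0.0814), but was called lower without BSGX001 replicate 1 (-0.23). LYS12, homoisocitrate dehydrogenase, had 66.6, 63.2 and 73.3 CPM in BSGX001 (thi2Δ), against 58.3, 58.8 and 57.2 CPM in BSGX001, and was called higher (0.22, SE 0.0804, adjusted p = 0.0220). That call was lost without BSGX001 replicate 3 (0.21) or without BSGX001 (thi2Δ) replicate 3 (0.16). LYS9, which forms saccharopine, was at 0.22 (SE 0.150) on few reads and was not called. LYS14, the gene of the lysine-specific activator, was itself lower, at -0.59 (SE 0.0765, adjusted p = 1.48e-07). Its element, TCCNNNGGA on both strands, was found at LYS1, LYS9, LYS12 and LEU9, 7.02% of the 57 genes against 3.52% of the tested genes, and of these only LYS1 was called lower. In the 500 bases before the start codon it was found at 7 of the 57 genes (12.3%), against 6.05% of the tested genes, and of these LYS1, TRP3 and THR4 were called lower. The median of the genes with the element was -0.12 in this window and 0.22 in the narrower one.

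With TMM, 8 of the 12 aromatic genes were called lower and none higher, and with library totals 6 were called lower and 1 higher. Over all tested genes 25.2% were lower and 26.1% higher with TMM, and 10.3% and 51.9% with library totals. ARO1, the multifunctional enzyme that carries the middle of the shikimate pathway, had 305.1, 217.0 and 251.1 CPM in BSGX001 (thi2Δ), against 407.0, 433.8 and 436.7 CPM in BSGX001 (log2 fold change -0.72, SE 0.0858, adjusted p = 1.02e-07). TRP3, which encodes enzyme activities of the tryptophan branch, had 102.8, 93.9 and 82.3 CPM in BSGX001 (thi2Δ), against 142.8, 156.8 and 144.3 CPM in BSGX001 (-0.67, SE 0.0787, adjusted p = 2.41e-08). TRP5, tryptophan synthase, had 236.6, 200.0 and 216.4 CPM in BSGX001 (thi2Δ), against 309.0, 325.3 and 307.6 CPM in BSGX001 (-0.53, SE 0.0699, adjusted p = 2.18e-07). The libraries of the strains did not overlap for any of these 3 genes, and the BSGX001 (thi2Δ) libraries differed most among themselves for ARO1. ARO8, an aromatic aminotransferase, at -0.49, ARO2, chorismate synthase, at -0.44, and TRP2, anthranilate synthase, at -0.40, were lower too. ARO3, the DAHP synthase inhibited by phenylalanine, at -0.31, and TYR1, prephenate dehydrogenase, at -0.26, were lower with TMM but not with library totals (-0.10 and -0.04). TRP4, anthranilate phosphoribosyltransferase, was at -0.05, ARO7, chorismate mutase, at -0.23 and PHA2, prephenate dehydratase, at 0.16, and these were not called. ARO4, the DAHP synthase inhibited by tyrosine, was not called at 0.19 (SE 0.0893, adjusted p = 0.0754), but was called higher without BSGX001 (thi2Δ) replicate 2 (0.27).

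The deepest fall was in the aspartate family, at the enzyme that commits aspartate to threonine, homoserine and methionine. HOM3, aspartate kinase, had 193.7, 171.9 and 174.1 CPM in BSGX001 (thi2Δ), against 381.7, 380.1 and 378.4 CPM in BSGX001 (log2 fold change -1.08, SE 0.0680, adjusted p = 4.27e-14), so that it stood at 47.4% of its BSGX001 level. HOM2, aspartate β-semialdehyde dehydrogenase, the next enzyme, had 194.3, 189.1 and 179.3 CPM in BSGX001 (thi2Δ), against 278.1, 313.3 and 319.0 CPM in BSGX001 (-0.69, SE 0.0699, adjusted p = 1.01e-09). For both genes the strains were far apart relative to the spread within either. THR4, threonine synthase, was lower at -0.55 (SE 0.0791) and THR1, homoserine kinase, at -0.31 (SE 0.0903), but the THR1 libraries overlapped, and its call was lost with library totals (-0.09) and without BSGX001 replicate 2 (-0.22). HOM6, homoserine dehydrogenase, was at -0.15 (SE 0.0752) and was called lower without BSGX001 (thi2Δ) replicate 2 (-0.22) but in no other alternative fit.

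Among the remaining genes, proline synthesis moved in both directions. PRO1, γ-glutamyl kinase, the first enzyme, had 33.2, 31.5 and 33.4 CPM in BSGX001 (thi2Δ), against 23.6, 26.1 and 26.6 CPM in BSGX001 (log2 fold change 0.37, SE 0.101, adjusted p = 0.00309). PRO2, γ-glutamyl phosphate reductase, had 166.0, 167.5 and 163.8 CPM in BSGX001 (thi2Δ), against 241.3, 241.8 and 247.5 CPM in BSGX001 (-0.55, SE 0.0661, adjusted p = 2.95e-08), and PRO3, pyrroline-5-carboxylate reductase, was lower at -0.43 (SE 0.0716). By deposited FPKM, which is scaled to gene length, PRO1 averaged 22.9 over the 6 libraries, PRO2 147.6 and PRO3 144.0, so the gene called higher had the lowest level of these 3. ASN2 and ASN1, asparagine synthetases, were lower at -0.55 (SE 0.0715) and -0.32 (SE 0.0758), and the ASN1 call was lost with library totals (-0.10). SHM2, cytosolic serine hydroxymethyltransferase, had 69.4, 64.3 and 68.7 CPM in BSGX001 (thi2Δ), against 53.5, 49.3 and 53.9 CPM in BSGX001 (0.37, SE 0.0802, adjusted p = 0.000281), and the mitochondrial enzyme SHM1, not one of the 57 genes, was lower at -0.47 (SE 0.0679). Of the serine genes, SER1, the transaminase, was lower at -0.25 (SE 0.0843), without a call under library totals (-0.03), without BSGX001 replicate 2 (-0.17) or without BSGX001 (thi2Δ) replicate 1 (-0.20). SER2, phosphoserine phosphatase, and SER3 and SER33, the phosphoglycerate dehydrogenases that open serine synthesis, were not called, at 0.11, 0.15 and 0.05. SER3 overlaps SRG1, a non-coding RNA gene, in R64, and reads shared between them cannot be told apart in these counts.

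**Figure D2:**
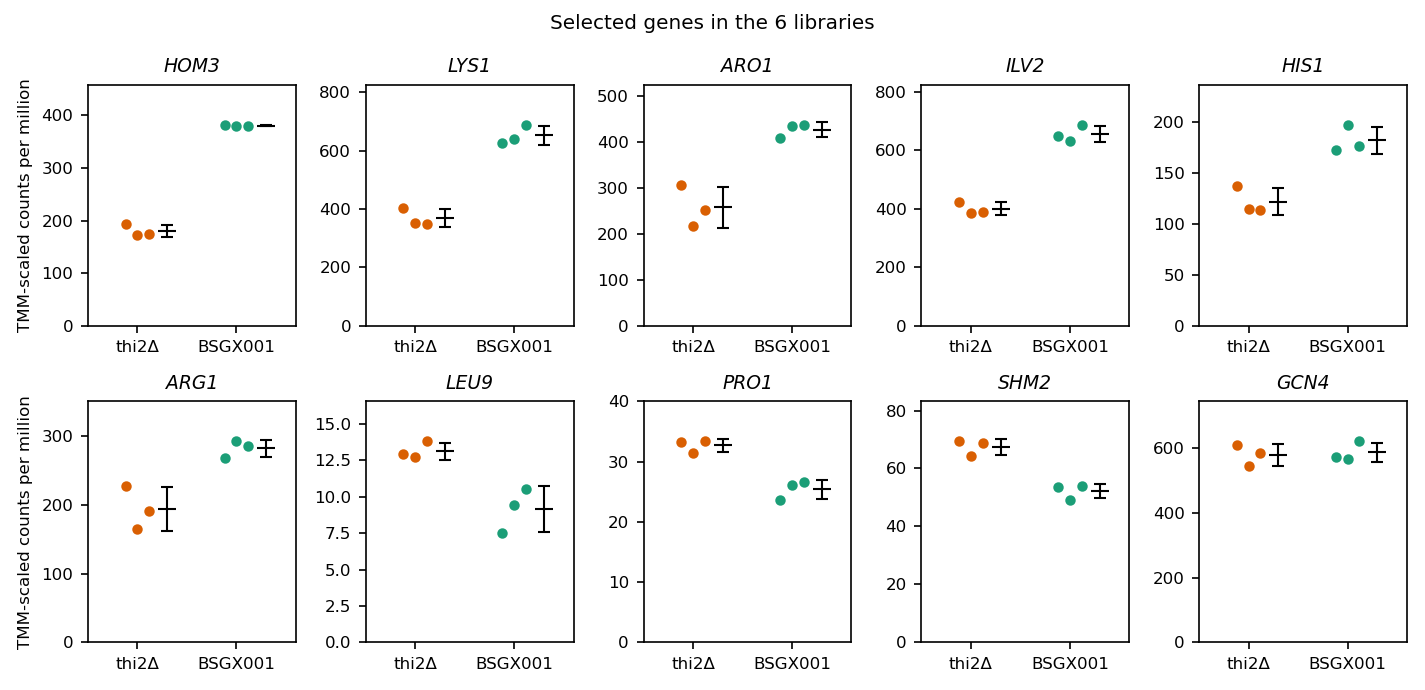
Each panel plots 1 gene, with TMM-scaled CPM on the vertical axis from 0, BSGX001 (thi2Δ) libraries on the left and BSGX001 libraries on the right, and the mean with its SD (n = 3) beside them. In the 6 panels of lowered genes, HOM3 to ARG1, the strains do not overlap, LEU9, PRO1 and SHM2 lie higher in BSGX001 (thi2Δ), and the GCN4 points overlap.

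GCN4 mRNA did not differ beyond the spread between libraries. It had 608.8, 542.9 and 584.1 CPM in BSGX001 (thi2Δ), against 572.7, 564.4 and 620.5 CPM in BSGX001 (log2 fold change -0.02, SE 0.0703, adjusted p = 0.857), and the libraries overlapped. With library totals, which moved the median of all tested genes up by 0.22, it was called higher, at 0.20 (adjusted p = 0.00925). By FPKM it was the most abundant of the 57 genes, at 689.6 on average over the 6 libraries, next to CPA1 at 676.8, while LEU9 had the lowest level, at 6.24. Of 15 genes that control GCN4 translation or the stability and activity of its protein, 7 were called lower (46.7%, against 25.2% of all tested genes), 3 were higher (20.0%, against 26.1%) and 5 were not called. SUI3, the β subunit of eIF2, was lower at -0.70 (SE 0.0682), and GCD11, the γ subunit, at -0.39 (SE 0.0669). MBF1, a coactivator that links Gcn4 to the TATA-binding protein, was lower at -0.69 (SE 0.0835), and PCL5, a cyclin that promotes Gcn4 breakdown and is itself a Gcn4 target, at -0.21 (SE 0.0691), a call that was lost with library totals (0.01, adjusted p = 0.944). GCN2, the kinase, was not called at -0.18 (SE 0.0800). The largest of the rises, at 1.25, was that of GCD7, a subunit of the eIF2 exchange factor, which lies in the raised chromosome XII segment. With library totals, under which 10.3% of all tested genes were lower and 51.9% higher, the same list had 3 genes lower and 5 higher.

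Further lists around these pathways were counted in the same way, beside 25.2% of all tested genes called lower and 26.1% higher. Of 14 further enzymes and carriers, 3 were called lower (21.4%), among them SHM1 and GLY1, a threonine aldolase, and 1 higher (7.14%), ALT1, alanine aminotransferase, at 0.32, and their median was -0.05. The GLY1 call was lost with library totals (0.02, adjusted p = 0.809). Among 11 pathway-specific regulators, 6 were lower (54.5%) and 1 was higher (9.09%), and beside LYS14 the lowest was ARG81, an arginine regulator, at -0.50 (SE 0.0669). BAS1, which acts on histidine and purine genes, was lower at -0.38 (SE 0.0951), a call that was lost with library totals (-0.17, adjusted p = 0.132), and LEU3 was higher at 0.21 (SE 0.0776). Of 10 catabolic enzymes, 2 were lower (20.0%), among them CAR1, arginase, at -0.49 (SE 0.0771), and 3 were higher (30.0%). The largest of these rises, at 0.91 (SE 0.0829), was that of GCV3, a subunit of glycine decarboxylase, which lies on chromosome I, in the raised region, and CAR2, ornithine aminotransferase, was higher at 0.54 (SE 0.0865). With library totals, under which 10.3% of all tested genes were lower and 51.9% higher, these 3 lists had 2, 2 and 1 genes lower and 4, 4 and 6 higher.

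For 6 steps that are catalysed by a pair of isoenzymes, the ratio of the counts of both genes within a library was compared, since this ratio does not depend on the scaling between libraries. LEU4 had 34.8, 29.8 and 29.1 times the counts of LEU9 in BSGX001 (thi2Δ), against 53.2, 47.8 and 41.4 times in BSGX001. ARO3 had 2.18, 2.48 and 2.35 times the counts of ARO4 in BSGX001 (thi2Δ), against 3.23, 3.37 and 3.21 times in BSGX001. LYS20 had 2.27, 2.18 and 1.92 times the counts of LYS21 in BSGX001 (thi2Δ), against 3.48, 2.57 and 2.73 times in BSGX001. In these 3 pairs the excess of the more abundant gene was smaller in every BSGX001 (thi2Δ) library, with a difference in the log2 ratio of -0.60 for LEU4/LEU9, -0.49 for ARO3/ARO4 and -0.45 for LYS20/LYS21. ASN1 had 0.308, 0.295 and 0.280 times the counts of ASN2 in BSGX001 (thi2Δ), against 0.238, 0.279 and 0.237 times in BSGX001, so that its groups just missed each other. BAT1 had 0.630, 0.592 and 0.666 times the counts of BAT2 in BSGX001 (thi2Δ), against 0.464, 0.566 and 0.562 times in BSGX001. SER3 had 2.47, 2.80 and 2.50 times the counts of SER33 in BSGX001 (thi2Δ), against 2.60, 2.25 and 2.41 times in BSGX001, and overlapped. In a two-sided exact permutation test, p was 0.1 for 5 pairs, the smallest value that 3 libraries against 3 can give, and 0.4 for SER3/SER33. Adjusted over the 6 pairs these became 0.12 and 0.4, so the design cannot show a difference at the usual threshold. LYS20 and LYS21 are 88.8% identical over their coding sequence in R64, and 37.8% of the 50-base stretches of LYS20 occur in LYS21 letter for letter, so their counts depend on how shared reads were divided. For LEU4/LEU9, BAT1/BAT2 and ARO3/ARO4 no such stretch is shared.

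**Figure D3:**
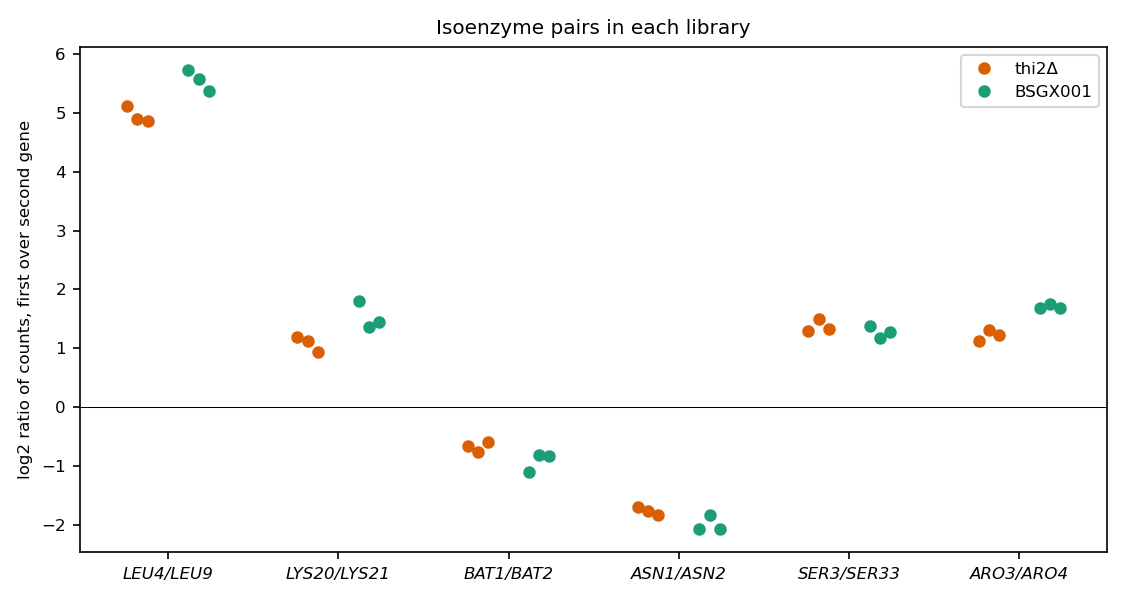
Points give the log2 ratio of counts, first gene over second, in each library on the vertical axis for 6 isoenzyme pairs, with the 3 BSGX001 (thi2Δ) libraries left of the 3 BSGX001 libraries. The strains are apart for 5 pairs, by -0.60 for LEU4/LEU9, and overlap for SER3/SER33.

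Within the 57 genes the change went with the level. The Spearman correlation of the log2 fold change with the mean FPKM was -0.56 over the 57 genes, which share the same 6 libraries, and -0.32 over all 5774 tested genes, so that abundant genes tended to be lower and rare genes higher in the whole table. A comparison at like levels was therefore added after seeing the data. The tested genes were split by mean FPKM into 10 classes of like size. In the upper 4 classes, from an FPKM of 75.7 on, 28 of 38 of these genes (73.7%) were called lower and 1 was called higher, and their median was -0.42. Of the 2272 other genes in that range 40.3% were called lower and 19.6% higher, with a median of -0.11. In the lower 6 classes, 4 of 19 of these genes were called lower (21.1%) and 4 higher, with a median of 0.05, beside 14.8% lower, 30.7% higher and a median of 0.10 for 3445 other genes. LEU9, LYS12, PRO1 and SHM2 are in this lower range. The part of level in the falls was not tested.

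**Figure D4:**
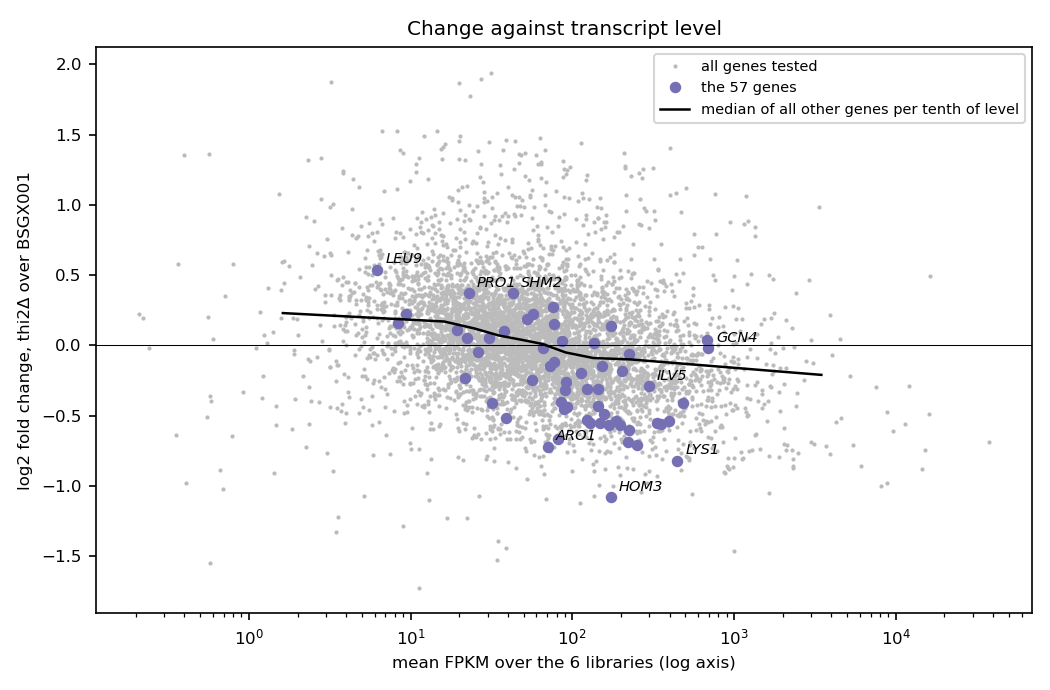
Each dot is 1 gene, with its mean FPKM over the 6 libraries on a log horizontal axis and its log2 fold change, BSGX001 (thi2Δ) over BSGX001, on the vertical axis; larger dots are the 57 genes and the line joins the medians of all other genes in 10 classes of FPKM. Most of the 57 genes above an FPKM of 75.7 lie below the line, and HOM3 lies lowest at -1.08.

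Genes that fell were found both with and without the Gcn4 core, and this was not tested further. Of the 32 genes with a core in the promoter window 21 were called lower, with a median of -0.31. Of the 25 genes without one 11 were called lower, with a median of -0.15. The share called lower over all tested genes was 25.2%. In the wider window 23 of 39 genes with a core were called lower, with a median of -0.29, and 9 of 18 without, with a median of -0.24. The 438 other tested genes with a core in the promoter window had a median of -0.05. LYS1, ARO1, HOM2, TRP3 and ILV3, among the largest falls, carried a core in the promoter window. ILV2, the most lowered branched-chain gene, had no core in either window, and HOM3 had its single one outside the narrower window. HIS4, HIS5 and LEU4 carried a core and were not called.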

How the data were processed

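Poly(A) RNA of 3 BSGX001 (thi2Δ) and 3 BSGX001 libraries was sequenced, and the authors deposited for each gene a count of reads, in whole numbers and without normalization, and an FPKM value scaled to gene length and library total. The submitters' processing notes name R64 as the build and DESeq as a tool; the aligner and the counter are not given in the sources used here. A deposited table of the authors' own comparison, with fold changes and p-values, was not used, and neither were 12 further columns, all equal to the values of the libraries. Gene IDs of 5923 of 5925 genes matched R64.

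Counts were compared with edgeR 4.0.16 in R 4.3.3 (TMM, filterByExpr, robust quasi-likelihood fit, Benjamini-Hochberg over 5774 genes, no covariates). The biological coefficient of variation was 0.0628, and every pair of libraries differed by more than sampling noise. SEs were taken from the F statistic, as the size of a log2 fold change over the square root of F. Sequences were read from the RefSeq R64 genome. Alternatives were DESeq2 1.42.0, its size factors, library totals, other filters, a replicate block, each library left out, limma 3.58.1 on log2(FPKM + 1) and log2(FPKM + 0.1), a threshold of 0.01, scaling to ACT1 and a fit without chromosome I and the segment of chromosome XII. In counts simulated for 5774 genes with 3 libraries per strain, edgeR called 100 of 100 genes changed by a log2 value of 1 and 95 of 100 changed by 0.5, with 10 calls among 5574 unchanged genes. The changed genes went up and down in equal numbers and left out those with the fewest reads. In the data 2964 of the 5774 genes were called, so the simulation did not check the scaling between libraries.

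The genes, the lists and the rule for naming were chosen with earlier results of these data known. Named by that rule were GCN4, THI2, ILV5, the isoenzyme pairs and the 3 genes with the largest change in each pathway; other genes are given in counts or with single values. The values of 1 further gene are not reported here.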

Additional observations from a re-analysis of the deposited data

How the results depend on the processing

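The numbers of genes called depended on the choice of scaling. The 5 genes called higher became 18 with library totals, 17 with limma on log2(FPKM + 1) and 17 with limma on log2(FPKM + 0.1), and library totals raised the share of higher calls among all called genes from 50.8% to 83.4% (2999 higher, 595 lower). The 2 limma fits, which also change the test and the input, gave 84.0% and 84.0% (2940 and 2936 higher, 558 and 560 lower). The 32 genes called lower became 23 in each of these 3 fits, 31 with the DESeq2 Wald test and 29 at an adjusted p under 0.01. Of all tested genes 26.1% were higher and 25.2% lower with TMM, and 51.9% and 10.3% with library totals. The Wald test called 1409 of all tested genes lower, and the threshold of 0.01 left 1133, in place of 1457. With 1 library left out, 29 to 34 of the 57 genes were called lower and 4 to 6 higher. Over all tested genes these fits called 1240 to 1426 lower and 1239 to 1407 higher. The medians that turned were those of the histidine genes (0.00 with library totals), of the branched-chain genes (0.06 with library totals, 0.06 and 0.07 with limma on FPKM) and of GCN4 (0.20 in all 3). BAT1 turned to -0.11 relative to ACT1. No pairing by replicate number was seen: correlations between the deviations of libraries with the same number were 0.0834, -0.0683 and -0.0536, and the fit with the replicate block called 3020 genes in place of 2964, with 32 of the 57 lower and 5 higher. The isoenzyme differences kept their sign with FPKM and with each library left out, from -0.69 to -0.51 for LEU4/LEU9, -0.53 to -0.44 for ARO3/ARO4, -0.54 to -0.32 for LYS20/LYS21, 0.16 to 0.30 for BAT1/BAT2, 0.19 to 0.31 for ASN1/ASN2 and 0.04 to 0.15 for SER3/SER33. Genes with few reads, such as LEU9, PHA2 and LYS9, have the largest errors of the 57.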
